A study of Homo sapiens with 22 samples.

Results

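The 67539 regions described here were open in HFFc6 fibroblasts, had no counterpart in H1 embryonic stem cells, were free of CTCF and lay away from gene ends. They were chosen by the deposited peak lists themselves: a peak of the HFFc6 ATAC list on chromosomes 1 to 22 or X was kept if it shared no base with any peak of the H1 ATAC list, the HFFc6 CTCF list or a CTCF list named for human embryonic stem cells (hESC), and if it lay more than 1 kb from both ends of every protein-coding gene in RefSeq. They made up 43.4% of the 155746 HFFc6 ATAC regions (95% Wilson interval 43.1 to 43.6%). That these regions are HFFc6-only, CTCF-free and distal therefore follows from the choice and is no finding.

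HFFc6 is the c6 subclone of human foreskin fibroblasts immortalised with telomerase (HFF-hTERT), so a single clone stands for fibroblasts here, while H1 cells are embryonic stem cells of human origin kept as a line. No treatment is named for either line. ATAC-seq marks accessible DNA by insertion of the Tn5 transposase and was run on 8 HFFc6 libraries and 2 H1 libraries, and CTCF was mapped in HFFc6 by Cut&Tag on 2 libraries. The titles of those 2 CTCF libraries begin with HFF1 and end in chip, and the cell line and protocol labels were followed here. The 8 HFFc6 ATAC titles combine 2 R with 4 T numbers of unstated meaning, so the labels do not say how many separate cultures they stand for. Each list was a single peak call for its group, so no value per library exists, no comparison between the lines could be tested against replicate spread, and every difference below is a difference between lists. No library label used here describes the hESC-named CTCF list. Read depth is unknown from peak lists. The lists differed in firmness: a −log10 q (the peak caller's adjusted significance) of at least 10 was reached by 85.2% of all HFFc6 ATAC regions and 75.7% of the regions described here, against 23.7% of the 87449 distal H1-only regions without CTCF that were picked by the same rule with the lines exchanged.

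Regions of open chromatin far from gene ends include many enhancers, which transcription factors open in a cell-type-specific way. In fibroblasts, the AP-1 dimers of FOS and JUN proteins, the TEAD factors with their co-activators YAP and TAZ, and RUNX factors are known to act at such elements, while CTCF marks insulators and the anchors of chromatin loops. Open chromatin alone does not show enhancer activity, and the histone mark libraries of the series were not analysed here.

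A small set of these regions held an annotated transcription start, and their sequences show what such an element looks like. RefSeq promoter windows, each running from 250 bases before to 50 bases after a start, overlapped one of the regions for 624 of 34961 windows (1.78%). Of these windows 461 belonged to lncRNA genes and 163 to protein-coding genes. The start itself lay inside a region for 345 lncRNA genes and 111 protein-coding genes. Protein-coding starts could qualify because they lie inside the outer ends of their gene, and 98 of the 111 genes had more than 1 tabulated window. For 71 of the 111, another window of the gene lay on an HFFc6 region shared with H1. A region shared with H1 lay within 1 kb of a gene end for 66.7% of the 111 genes and for 69.2% of all protein-coding genes. Printed below are the windows of the pair of lncRNA genes and the pair of protein-coding genes whose regions had the highest fold enrichment among windows lying wholly inside a region (the peak caller's signal over background), from RefSeq on GRCh38 patch 14, 5′ to 3′ on the gene's strand, with matches to AP-1 (TGANTCA), TEAD (GGAATG) and RUNX (TGTGGT) letters on either strand in capitals.
LOC107987331: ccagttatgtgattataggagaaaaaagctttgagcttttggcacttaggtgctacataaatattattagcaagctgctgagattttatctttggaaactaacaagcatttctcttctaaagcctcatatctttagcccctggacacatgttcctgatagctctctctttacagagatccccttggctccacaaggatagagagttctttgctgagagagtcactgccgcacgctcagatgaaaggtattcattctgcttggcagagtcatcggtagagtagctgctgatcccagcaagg
LOC107986337: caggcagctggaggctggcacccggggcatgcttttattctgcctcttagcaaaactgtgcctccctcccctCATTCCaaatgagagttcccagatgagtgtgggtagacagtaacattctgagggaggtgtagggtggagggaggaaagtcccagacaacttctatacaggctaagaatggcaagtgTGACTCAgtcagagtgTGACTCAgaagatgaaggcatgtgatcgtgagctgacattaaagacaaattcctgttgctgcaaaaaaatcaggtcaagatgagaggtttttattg
CDH18: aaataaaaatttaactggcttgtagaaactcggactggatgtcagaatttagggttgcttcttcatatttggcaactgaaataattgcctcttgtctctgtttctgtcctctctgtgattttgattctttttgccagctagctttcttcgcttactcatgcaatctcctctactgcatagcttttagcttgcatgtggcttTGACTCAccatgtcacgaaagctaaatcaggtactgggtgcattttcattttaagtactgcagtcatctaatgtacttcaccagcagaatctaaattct
TMCC1: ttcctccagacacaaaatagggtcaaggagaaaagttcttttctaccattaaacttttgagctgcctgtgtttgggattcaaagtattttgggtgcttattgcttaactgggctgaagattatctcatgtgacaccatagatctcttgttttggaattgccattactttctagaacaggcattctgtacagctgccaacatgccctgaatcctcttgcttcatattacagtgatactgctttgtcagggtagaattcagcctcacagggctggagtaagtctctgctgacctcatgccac

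The LOC107987331 window (chrX:7012249-7012548, plus strand) lay in a region of fold enrichment 19.8 and held none of the 3 motifs. The LOC107986337 window (chr4:188127513-188127812, minus strand) lay in a region of fold enrichment 18.1 and held the AP-1 letters at 2 places and the TEAD letters at 1. CDH18 encodes a cadherin, a cell adhesion protein, and its window (chr5:19886223-19886522, minus strand, fold enrichment 15.7) held 1 AP-1 match. TMCC1 encodes a membrane protein of the endoplasmic reticulum, and its window (chr3:129724064-129724363, minus strand, fold enrichment 15.4) held none. The elements printed above therefore differed among themselves in these letters, and a match is a description of letters, not a bound site.

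Of the listed genes described further below, 4 had an annotated start inside one of the regions. SMAD3 encodes a signal transducer of TGF-beta, DDR1 a collagen receptor kinase, TP63 an epithelial transcription factor and PAX6 a transcription factor of eye and neural development. Their windows are printed because they place a fibroblast-only open region at an internal start of a regulator, in the same form as above.
SMAD3: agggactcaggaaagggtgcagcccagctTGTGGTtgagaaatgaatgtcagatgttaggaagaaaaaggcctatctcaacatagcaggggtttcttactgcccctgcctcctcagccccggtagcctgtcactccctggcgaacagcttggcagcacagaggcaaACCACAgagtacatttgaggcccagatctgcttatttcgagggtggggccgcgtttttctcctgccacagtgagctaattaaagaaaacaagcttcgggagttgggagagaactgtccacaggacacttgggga
DDR1: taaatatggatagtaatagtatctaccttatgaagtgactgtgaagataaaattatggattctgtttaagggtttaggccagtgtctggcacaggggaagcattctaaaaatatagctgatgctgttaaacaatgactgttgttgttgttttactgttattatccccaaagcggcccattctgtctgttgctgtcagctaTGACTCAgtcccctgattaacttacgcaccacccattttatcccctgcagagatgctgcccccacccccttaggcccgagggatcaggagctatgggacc
TP63: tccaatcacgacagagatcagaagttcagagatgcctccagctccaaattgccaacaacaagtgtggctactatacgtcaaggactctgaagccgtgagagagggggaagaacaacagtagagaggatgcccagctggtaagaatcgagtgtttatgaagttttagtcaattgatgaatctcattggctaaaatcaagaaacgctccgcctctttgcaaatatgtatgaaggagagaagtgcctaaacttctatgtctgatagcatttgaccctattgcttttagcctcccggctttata
PAX6: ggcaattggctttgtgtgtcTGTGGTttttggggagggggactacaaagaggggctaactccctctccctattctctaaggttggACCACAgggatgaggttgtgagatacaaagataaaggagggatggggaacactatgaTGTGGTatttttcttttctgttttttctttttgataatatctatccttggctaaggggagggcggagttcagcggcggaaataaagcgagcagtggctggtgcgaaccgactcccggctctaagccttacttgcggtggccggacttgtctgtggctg

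The SMAD3 window (chr15:67098429-67098728, plus strand) lay 32304 bp from the nearest gene end in a region of fold enrichment 10.1, and held the RUNX letters at 2 places. The DDR1 window (chr6:30888438-30888737, plus strand) lay in a region of fold enrichment 3.17 and held 1 AP-1 match. The TP63 window (chr3:189631139-189631438, plus strand, fold enrichment 3.93) held none, and the PAX6 window (chr11:31803624-31803923, minus strand, fold enrichment 4.03) held the RUNX letters at 3 places. DDR1, TP63 and PAX6 thus sat below the median strength of the regions, and SMAD3 close to its upper 10%. After CDH18 and TMCC1, the next strongest region at a protein-coding start outside chromosome 8 belonged to SH3KBP1, an adaptor of receptor endocytosis, at 14.8. ARHGEF10L, which encodes a guanine nucleotide exchange factor, followed at 14.8. Then came ZBTB20, a zinc finger repressor, at 14.2, and DICER1, the nuclease that cuts miRNA precursors, at 13.1.

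The letters of AP-1 were more frequent in the windows on these regions than in those on H1-only regions or in all windows. They occurred in 21.0% of the 624 windows (interval 18.0 to 24.4%), against 9.86% of the 832 windows on distal H1-only regions without CTCF and 7.68% of all windows. Base composition moved with this: mean GC content was 47.7% in the windows on the regions, 52.6% on the H1-only ones and 57.6% overall. Among windows of GC content below 50%, the AP-1 letters occurred in 25.8% (21.8 to 30.3%) on the regions, 14.2% (11.1 to 18.0%) on the H1-only regions and 13.5% overall. The same bases in another order (TCANTGA) occurred in 12.7, 9.90 and 11.4% of those 3 sets, so their intervals overlapped where those of AP-1 did not. Windows on any HFFc6 ATAC region, which include those on the class, held the AP-1 letters in 6.56% at any GC content. Below 50% GC their share was 19.98% (18.4 to 21.6%), between the 25.8% on the regions and the 13.5% overall. A raised AP-1 share at low GC content was thus not particular to the class. Intervals cover counting error only, and windows of 1 gene can share sequence. With 1 window per gene the AP-1 share on the regions was 21.5%.

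For the TEAD and RUNX letters the sets lay closer together at low GC content. The TEAD letters occurred in 24.8% of windows on the regions against 21.2% on H1-only regions, but below 50% GC the values were 23.1 and 24.4%, with 18.9% of all such windows. The RUNX letters, at 20.7, 14.4 and 13.1%, came to 20.8, 15.7 and 18.5% below 50% GC, with overlapping intervals. The GATA letters (AGATAA) occurred in 26.1% of these low-GC windows on the regions and 18.5% on the H1-only regions, with an interval of 22.2 to 23.8% for all. The GC box (GGGCGG), bound by SP factors at housekeeping promoters, was found in 12.0% of windows on the regions, 25.4% on H1-only regions and 45.0% of all. The ETS letters (CCGGAA) were found in 7.05, 8.05 and 17.3%. Below 50% GC these differences were small, with overlapping intervals. The GC box then came to 2.98, 5.33 and 4.56%, and the ETS letters to 3.97, 3.30 and 4.25%. AP-1 and TEAD letters stood together in 37 windows on the regions (5.93%), against 2.40% on H1-only regions and 1.45% of all. These joint shares were not split by GC content, and each motif alone was also more frequent on the regions there. Whether the letters stood together beyond their single shares was not tested. The sequence of the regions away from annotated starts was not read here, so these shares describe the 0.860% of regions that lie under a window.

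**Figure D1:**
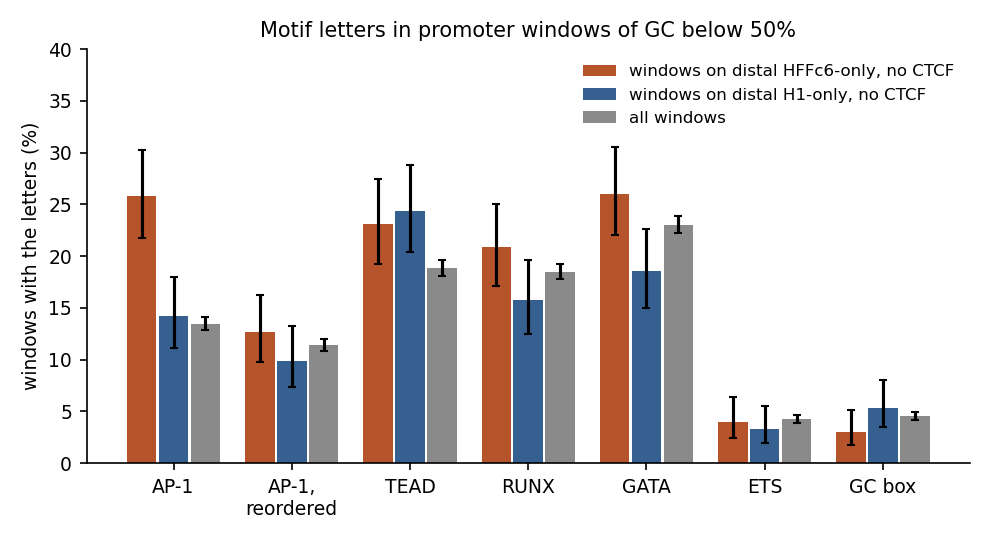
Percent of promoter windows of GC content below 50% that hold the letters of each motif on either strand, for windows on distal HFFc6-only regions without CTCF, on distal H1-only regions without CTCF and for all windows, with 95% Wilson intervals as bars. AP-1 stands at 25.8% in the first set, above 14.2 and 13.5%, while the reordered letters lie between 9.90 and 12.7% in all 3. Windows on any HFFc6 ATAC region are not drawn and stood at 19.98% for AP-1.

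Hairpins of 21 miRNAs out of 1558 also overlapped the regions, on 19 of them, against 17 hairpins on the distal H1-only regions. On HFFc6 ATAC regions of any kind lay 206 hairpins, so the class held few of them for its 43.4% of that list. MIR591, inside SLC25A13 on chromosome 7, lay on the strongest of the 19 regions, at a fold enrichment of 18.0. A region of 1041 bp on chromosome 14 with a fold enrichment of 5.13 held the hairpins MIR668 and MIR485 and overlapped MIR323B, all of the imprinted DLK1-DIO3 cluster. MIRLET7A2, one of the genes for let-7a, which represses LIN28 and other growth regulators in differentiated cells, lay in its host lncRNA MIR100HG under a region of fold enrichment 4.64. The mature sequences of these miRNAs follow, from RefSeq, 5′ to 3′ with the seed (bases 2 to 8) in capitals, since the seed sets which transcripts a miRNA can pair with.
miR-591: aGACCAUGgguucucauugu
miR-485-5p: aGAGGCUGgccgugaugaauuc
miR-485-3p: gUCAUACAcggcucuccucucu
miR-668-5p: uGCGCCUCgggugagcaug
miR-323b-5p: aGGUUGUCcguggugaguucgca
miR-323b-3p: cCCAAUACacggucgaccucuu
let-7a-5p: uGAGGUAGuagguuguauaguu
let-7a-2-3p: cUGUACAGccuccuagcuuucc

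No seed was shared among them, nor among the 27 mature miRNAs tabulated for the 21 hairpins. An open region on a hairpin says nothing of the level of its miRNA, which was not measured.

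The regions were weaker and narrower than the fibroblast list as a whole, which had medians of 6.08 in fold enrichment and 707 bp in width. Their fold enrichment had a median of 4.24, with 10% of regions below 2.28 and 10% above 10.3, and their width had a median of 527 bp (10% below 274 bp and 10% above 1020 bp). Distal HFFc6-only regions that did carry CTCF (30797 regions) had a median fold enrichment of 9.53 and a width of 876 bp. Regions shared with H1 but equally distal and CTCF-free (9609) had medians of 4.39 and 642 bp. The 1947 HFFc6-only CTCF-free regions at gene ends had medians of 3.67 and 560 bp. Among CTCF-free distal regions, then, HFFc6-only and shared ones had similar strength, and the larger gap lay between regions with and without CTCF. Fold enrichment and width rose together across the regions (Spearman rank correlation 0.612, n = 67539, both from the same reads). The rule allowed no shared base, so a wider region had more bases on which it could be left out. With the HFFc6 list cut into 5 equal parts by width, 67.8% of the narrowest part and 14.6% of the widest belonged to the class. How far the rule itself set the lower width and strength was not tested.

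Along the HFFc6 list the class thinned out steadily with strength. The list was ranked by fold enrichment and cut into 5 equal parts. Of the regions in the weakest part 68.7% belonged to the class, then 59.0, 44.8 and 29.1%, and 15.2% of those in the strongest. CTCF of either list lay on 81.9% of the strongest part and 18.5% of the weakest, and an H1 ATAC region on 47.6 and 21.1%. The corresponding H1 class fell off in the same way, at 69.7% of the weakest part of the H1 list and 12.6% of the strongest. What part weak calls play in the class was not tested. Still, 4742 of the regions belonged to the strongest part of the whole list, where fold enrichment was at least 11.7.

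**Figure D2:**
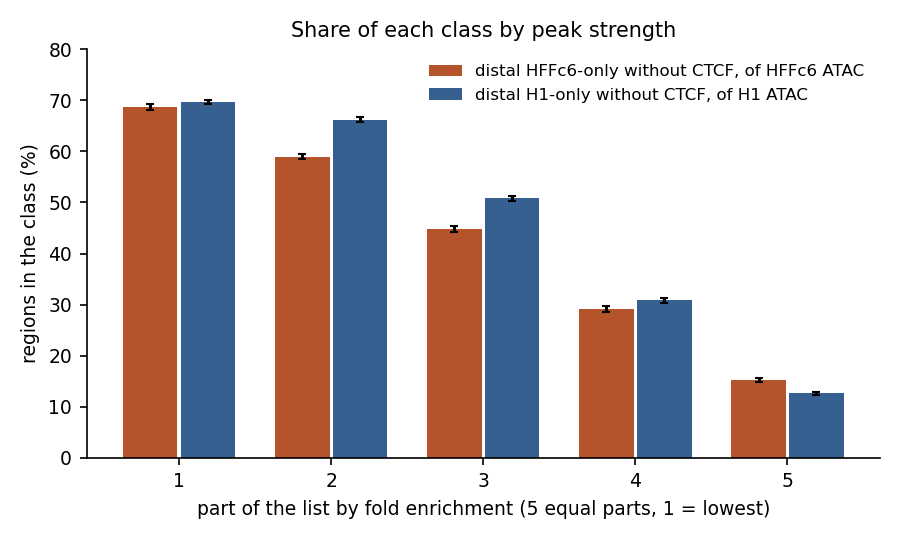
Percent of regions in the class, for 5 equal parts of a list ranked by fold enrichment (1 is the lowest); distal HFFc6-only regions without CTCF are given as a share of HFFc6 ATAC regions and the H1 counterpart as a share of H1 ATAC regions, with 95% Wilson intervals. Both shares fall with strength, to 15.2% and 12.6% in the strongest part.

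Several of the 10 strongest regions lay near members of multicopy gene families, a remark made after their values were seen. The highest fold enrichment, 39.7, was at chr9:68250672-68251343 inside ZNG1C, a zinc chaperone gene with paralogs on the same chromosome. Next came regions inside HYDIN, which encodes a protein of motile cilia, at 33.4, and near TCAF1, a regulator of TRP channels, at 32.6. PLGLB2, DPY19L2, NBPF12 and SPATA31A1, also of multicopy families, were nearest to regions at 25.7, 25.5, 24.6 and 24.5. How reads that fit several copies were treated was not given here, so values at these genes are uncertain. LOC124903857 and EPN2, an endocytic adaptor gene, were nearest to regions at 24.9 and 24.7. The region near CNTNAP5, a neurexin-family gene, stood at 24.6 and lay 484405 bp from the gene end and 528216 bp from the nearest HFFc6 CTCF region.

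The widest regions were of moderate strength. The widest measured 3446 bp, lay near ZFP64 in the lncRNA gene LOC105372666 and had a fold enrichment of 4.38. The second, 3161 bp at chr2:215354617-215357777, lay inside ATIC, 3088 bp from the end of FN1, the fibronectin gene, at a fold enrichment of 3.18. Others of over 3000 bp lay near GBE1 (3119 bp), LOC124904970 (3106 bp) and CST7 (3059 bp). Width and strength thus picked out different regions at the extremes.

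At the 1 kb limit the regions on both sides were as follows. The closest regions kept were at LHFPL2 and CYP3A43 (both 1004 bp from a gene end, fold enrichments 5.38 and 4.87) and at RNASE10 (1005 bp, 5.67). The closest left out were at C7orf78 (999 bp, 5.32), WNT3A (998 bp, 1.84) and H1-8 (997 bp, 1.92). The 3 kept had similar fold enrichments, while 2 of the 3 left out were weak. In all, 1947 regions that met the other conditions were left out for lying at a gene end, 2.80% of the 69486 that reached this step. That step therefore moved little, while 101679 regions (65.3% of the list) lacked an H1 counterpart and 30567 of these carried HFFc6 CTCF.

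Within the genome the regions stood in and around genes, at moderate distance from gene ends. Of the 67539 regions, 48.8% overlapped a protein-coding gene, 13.6% a lncRNA gene only and 37.6% neither. Distal HFFc6-only regions with CTCF lay in protein-coding genes more often, at 57.6%, and distal H1-only regions without CTCF less often, at 42.9%. The median distance to a protein-coding gene end was 42941 bp, against 88297 bp for the H1-only regions. Gene models here gave outer ends only, so exons, introns and UTRs could not be told apart.

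The distance bands show the same contrast. Between 1 and 5 kb from a gene end lay 8.16% of the regions, between 5 and 20 kb 22.7%, between 20 and 100 kb 40.4%, between 100 and 500 kb 24.5%, and beyond 500 kb 4.20%. For the H1-only regions the bands held 4.86, 14.4, 33.8, 35.9 and 11.1%. The H1-only class thus lay farther from gene ends, with more than its fibroblast counterpart in both bands beyond 100 kb. Median fold enrichment of the fibroblast regions was 3.55 in the nearest band and 4.56 in the farthest. The farthest regions, 3 on chromosome 22 with OR11H1 as the nearest gene, lay 4805033 to 4840620 bp from a protein-coding gene end.

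**Figure D3:**
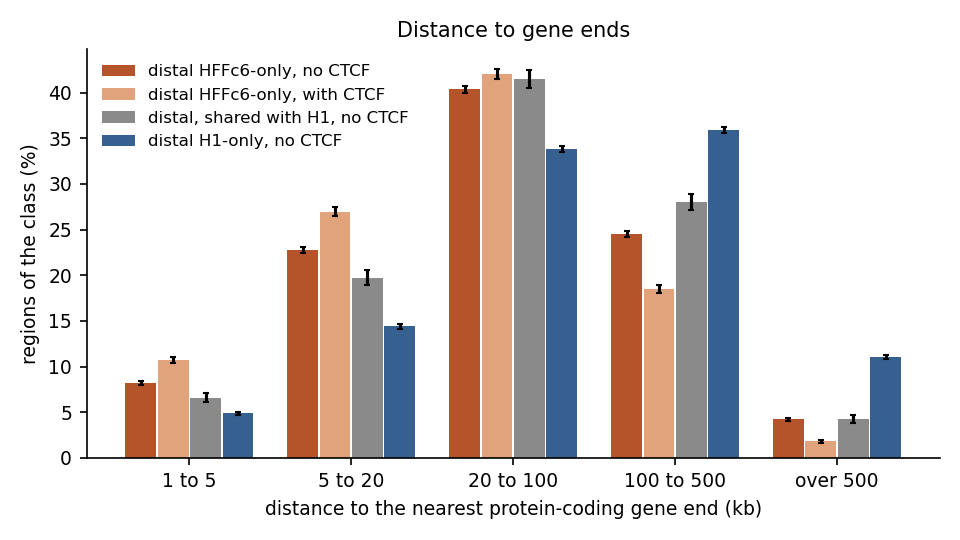
Percent of the regions of each class by distance to the nearest protein-coding gene end in kb, for distal HFFc6-only regions without CTCF, those with CTCF, distal regions shared with H1 without CTCF and distal H1-only regions without CTCF, with 95% Wilson intervals. The H1-only class holds 35.9% of its regions at 100 to 500 kb, against 24.5% for the HFFc6-only class.

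Open chromatin of H1 was often close by, within 5 kb for 50.7% of the regions. The nearest H1 ATAC region was at a median of 4900 bp, the nearest HFFc6 CTCF region at 11347 bp, and the nearest other HFFc6 ATAC region at 4091 bp. Only 526 regions (0.779%) had an H1 region within 100 bp and 3129 (4.63%) within 500 bp, and the latter had a median fold enrichment of 3.74. The 49.3% of regions more than 5 kb from any H1 region had a median of 4.43. Near misses of the overlap rule were therefore few and somewhat weaker. In contrast, 450 regions (0.666%) stood more than 50 kb from both H1 ATAC and HFFc6 CTCF regions.

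Some of the regions stood in dense groups. Joined at gaps of up to 10 kb they formed 44042 clusters, of which 29684 were single regions. Clusters of 5 or more numbered 920 and held 8.03% of the regions, against 1121 clusters and 7.42% for the H1-only counterpart, so a similar share of both classes was grouped. Members of large clusters were not stronger: the median fold enrichment was 3.55 in the 22 clusters of 10 or more, against 4.30 for regions alone.

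The largest cluster had 17 regions over 68.9 kb inside LIMCH1, which encodes an activator of non-muscle myosin. HFFc6 had 20 ATAC regions across that span and no HFFc6 CTCF region, while H1 had 7 ATAC regions. DAAM2, a formin of Wnt signalling, and PGBD5, a transposase-derived gene, followed with clusters of 13. Of the clusters of 12, the one over ATIC and FN1 spanned 44.8 kb and had 15 HFFc6 ATAC regions, 0 in H1 and 2 HFFc6 CTCF regions. The cluster of 12 near ZNF675, a zinc finger gene on chromosome 19, likewise had 0 H1 ATAC regions over 55.8 kb. Clusters of 11 also lay near LOC112267992 and VWA2. Further clusters of 12 lay near EDEM1, which acts in degradation of misfolded glycoproteins, and near FOXO1, a forkhead factor downstream of insulin signalling. CALD1, the gene of the actin-binding protein caldesmon, held one of 11 regions. These dense groups were at most 17 regions long and together made up a small part of the class.

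Counted by the closest end of a protein-coding gene, the regions were spread over 11857 of 19974 genes, and the 1950 genes with 10 or more held 56.3% of them. The genes with most regions were mostly single genes in wide gene-poor surroundings, where H1-only regions were also many. SLITRK1, a neuronal synapse adhesion gene, had 113 HFFc6-only and 119 H1-only regions, and TENM3, a teneurin adhesion gene, 100 and 170. CDH2, which encodes N-cadherin, had 96 and 67, DAOA 95 and 67, and NCKAP5 94 and 29. IMMP2L had 84 and 57, CDH11, a mesenchymal cadherin, 79 and 72, TBL1XR1 78 and 65 and STIM2, a calcium sensor, 77 and 76. ID2, an inhibitor of bHLH factors, had 74 HFFc6-only and 26 H1-only regions, at 89.9 HFFc6-only regions per Mb of its territory, the stretch of chromosome for which its ends are the nearest. NCKAP5, with 76 of its 94 regions inside the gene, reached 76.7 per Mb. HFFc6-only regions outnumbered H1-only ones by 48 at ID2 and 65 at NCKAP5, but by 5 and 20 with a limit of 100 kb on the distance, and by 0 and 53 inside the genes. For comparison the genome as a whole had 22.3 HFFc6-only and 28.9 H1-only regions per Mb.

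The remaining genes of the first 15 were ASB3 with 71 HFFc6-only and 63 H1-only regions, PARD3B, a polarity gene, with 71 and 44, the axon guidance ligand SLIT2 with 71 and 60, the glypican GPC6 with 69 and 61, and ZEB2, a repressor of epithelial genes, with 69 and 98. Genes with no distal H1-only region had far fewer fibroblast ones. FAM47B on chromosome X had 22, TUBA3C 21, the zinc finger gene ZNF91 18, DCUN1D4 17, TPTE and OR11H1 16 each, FAM9C 15, and TM2D1, ZNF675 and SRGAP2C 14 each. Territory differed widely among them, with 9.63 Mb for TUBA3C but 0.175 Mb for FAM9C, so their densities ran from 2.08 per Mb at OR11H1 to 86.5 per Mb at TM2D1. The OR11H1 regions farthest from a gene end lay 6051379 to 6086966 bp from the nearest H1 ATAC region. Whether reads could be placed in such stretches in either line is unknown from peak lists, so a count of 0 in H1 is uncertain there.

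Set against this background, 35.3% of protein-coding genes had more HFFc6-only than H1-only regions of the CTCF-free distal kind and 28.2% had fewer, with medians of 1 and 1. With a −log10 q of at least 10 required in every list, the shares were 50.1% and 12.3%. This limit also removed weaker H1 and CTCF peaks, so regions that overlapped only such peaks joined the class. It kept 85.2% of all HFFc6 ATAC regions but 48.4% of all H1 ATAC regions. The HFFc6-only class then had 68704 regions, against 67539 with all calls, and the H1-only class 31068, against 87449. The firmer counts thus do not describe the same regions. Counts between the lists are therefore read beside the shares of all genes only. The lists below were chosen with earlier results of these data known, and a list's count describes these peaks without a test.

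Genes of the fibroblast matrix had the most HFFc6-only regions per Mb of the 21 lists. Of 26 such genes, 16 had more HFFc6-only regions and 7 had more H1-only regions, with medians of 11.5 and 5, and their territory held 49.8 and 38.1 regions per Mb. THBS2, a matricellular thrombospondin, had 22 HFFc6-only and 6 H1-only regions, VCAN, the proteoglycan versican, 19 and 4, and FN1 23 and 11. COL1A2, a chain of collagen I, had 18 and 12, and COL3A1, the chain of collagen III, 14 and 8, with its strongest region at 17.6 lying 120585 bp from the gene. POSTN, which encodes periostin, had 18 and 9. Some genes went the other way: TNC, the gene of tenascin C, had 26 and 29, DCN, the gene of decorin, 17 and 25, and FBN2 22 and 32. With the firmer calls 24 of 26 had more HFFc6-only and 0 more H1-only regions, and most other lists also leaned to HFFc6 there. Of 16 genes of matrix crosslinking and remodelling 8 had more and 5 fewer, and 10 and 2 at the firmer q. Their territory went the other way, with 28.2 HFFc6-only and 37.5 H1-only regions per Mb, beside 22.3 and 28.9 for all genes. PLOD2, a lysyl hydroxylase, had 16 HFFc6-only but 54 H1-only regions. Among 18 proteases and inhibitors the counts were 8 and 5, and 14 and 2 at the firmer q, led by TIMP3, an inhibitor of metalloproteinases, with 17 and 2.

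Contractile genes gave the widest gap per Mb in favour of HFFc6 among the 21 lists. Of 20 contractile genes, 11 had more HFFc6-only and 2 more H1-only regions, and the territory held 39.1 and 19.8 regions per Mb. At the firmer q the counts were 13 and 2. CALD1 had 25 HFFc6-only and 6 H1-only regions, 24 of the 25 inside the gene. The list as a whole had 89 and 45, so its gap and rank rested in large part on this single gene. Another 7 of the genes had equal numbers. SYNPO2, an actin-bundling protein of muscle and stroma, had 12 and 3, with its strongest region at a fold enrichment of 20.6, and PALLD, the gene of palladin, had 12 and 7. Compact contractile genes had almost none: TAGLN, CNN1 and MYL9 had 0 of either kind and ACTA2 1 and 1. Of 18 integrin genes 11 had more and 4 had fewer, and 15 and 2 at the firmer q. ITGA2 and ITGA1, which pair with the integrin beta 1 chain to bind collagen, had 9 and 6 HFFc6-only regions with 0 H1-only regions, and ITGA11 had 10 and 3. ITGB8 was opposite, with 0 HFFc6-only and 8 H1-only regions.

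Signalling genes leaned the same way in part. In the TGF-beta pathway 13 of 20 genes had more HFFc6-only regions and 5 had fewer, and 16 and 1 at the firmer q. Among its ligands TGFB2 had 33 HFFc6-only and 19 H1-only regions and INHBA, the gene of the activin A subunit, 24 and 20, while TGFB1 had 1 and 1. Of the secreted antagonists, GREM1 had 7 and 0 and FST, the gene of follistatin, 9 and 3. Among signal transducers SMAD4 had 7 and 2 and SMAD3 7 and 6. Of 13 genes of the YAP and TEAD list 9 had more and 3 fewer (9 and 0 at the firmer q): the co-activator YAP1 had 9 and 4, its paralog WWTR1 (TAZ) 10 and 5, and the targets CCN2 8 and 5 and ANKRD1 6 and 2. The strongest region nearest to CCN2 had a fold enrichment of 19.8. Growth factor receptors were split, with 11 having more and 9 fewer of 21, though 15 and 3 at the firmer q. Counted at the gene that holds the region, 7 had more and 10 fewer. EGFR had 24 HFFc6-only and 3 H1-only regions, ROR2 17 and 4, DDR2, a collagen receptor kinase, 12 and 1 and PDGFRA 11 and 3. NTRK2, a neurotrophin receptor, had 2 and 30, and EPHB2 3 and 14. Of 17 genes of inflammatory secretion 9 had more and 6 fewer (11 and 1 at the firmer q), with TNFAIP3 at 19 and 6 and IL6 at 8 and 1.

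The counts of transcription factor genes depended on the firmness of the calls. Of 28 mesenchymal factors 15 had more HFFc6-only regions and 12 more H1-only regions, and the territory held 35.7 and 39.8 per Mb, but at the firmer q 24 had more and 2 fewer. TWIST2 had 15 HFFc6-only and 7 H1-only regions, PRRX1 16 and 9, RUNX2 19 and 11, RUNX1 27 and 20, TCF21 10 and 4 and SNAI2 8 and 2. EBF1, NFIB and OSR1 had more H1-only regions, with 13 HFFc6-only and 39 H1-only, 25 and 44, and 21 and 34. The AP-1 and serum response list had 8 genes with more and 4 with fewer of 15, and 10 and 1 at the firmer q. MYC, on a wide gene-poor stretch of chromosome 8, had 48 and 40, FOS 6 and 2 and JUN 11 and 13. The assignment of regions to genes also mattered. When regions were counted at the gene that holds them, 9 mesenchymal factors had more and 10 fewer. For the AP-1 and serum response list the counts were then 3 and 4.

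**Figure D4:**
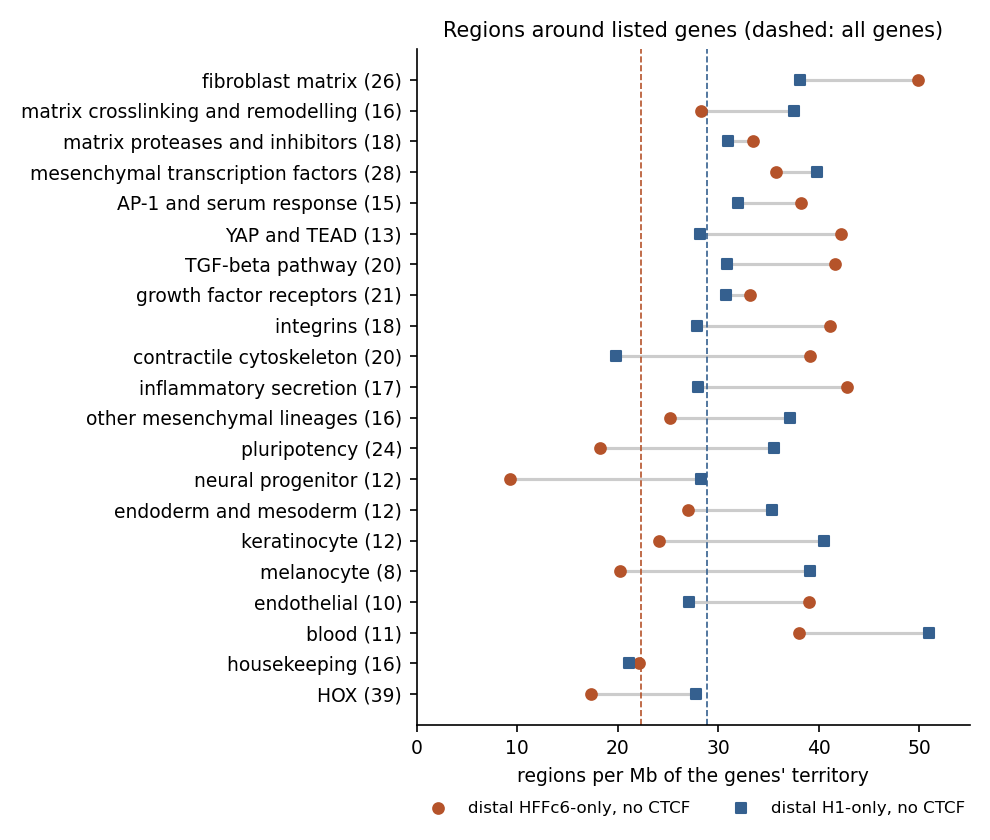
Distal HFFc6-only (circles) and distal H1-only (squares) regions without CTCF per Mb of the territory nearest to the genes of each list, with the number of genes in brackets; the dashed lines mark all genes, at 22.3 and 28.9 per Mb. Fibroblast matrix genes stand at 49.8 and 38.1 and neural progenitor genes at 9.32 and 28.2.

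Stem cell and neural genes leaned to H1 when all calls were counted. Of 24 pluripotency genes 3 had more HFFc6-only regions and 14 fewer, and the territory held 18.2 HFFc6-only and 35.5 H1-only regions per Mb. SOX2, a core pluripotency factor, had 2 HFFc6-only and 53 H1-only regions. DPPA4, in contrast, had 32 and 19, the strongest of them 687496 bp from the gene. Of 12 neural progenitor genes 4 had more and 7 fewer, with OTX2 at 0 and 15. With the firmer calls 6 pluripotency genes had more and 9 had fewer, beside 50.1% and 12.3% of all genes. The neural lean was not kept there, with 7 genes having more and 5 fewer. Nor was it kept, with all calls, at the gene that holds the region, with 2 and 1.

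Lists of other cell types that a foreskin culture could hold differed when all calls were counted. With the firmer calls they leaned to HFFc6, as protein-coding genes at large did. At the firmer q the genes with more and with fewer numbered 10 and 0 for the endothelial list, 7 and 1 for keratinocytes, 5 and 1 for melanocytes and 5 and 1 for blood, beside 50.1 and 12.3% of all genes. With all calls, of 8 melanocyte genes 3 had more and 4 fewer, with MITF at 18 HFFc6-only and 7 H1-only regions but TYRP1 at 3 and 55. Of 12 keratinocyte genes 4 had more and 3 fewer, with TP63 at 9 and 30. Of 10 endothelial genes 6 had more and 3 fewer, and TEK, the angiopoietin receptor, had 18 and 4 with 16 of them inside the gene. Of 11 blood genes 4 had more and 3 fewer. Cartilage, bone, fat and muscle genes had 8 with more and 5 with fewer of 16, with SOX9 at 55 and 36 and SOX5 at 1 and 77. Of 12 endoderm and mesoderm genes 5 had more and 5 fewer, of 16 housekeeping genes 6 and 4, and of 39 HOX genes 8 and 9, with 27 HOX genes having no HFFc6-only region at all. At the firmer q these last 4 lists had 12 and 2, 6 and 3, 8 and 2, and 11 and 3. These counts are of regions near genes and do not measure expression or the presence of cells.

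The share of the class differed among chromosomes with their gene content. It was 21.1% of HFFc6 ATAC regions on chromosome 19, a median of 43.2% over the 23 chromosomes and 50.3% on chromosome 4. The share fell as protein-coding genes per Mb rose (Spearman rank correlation −0.900 over 23 chromosomes), and the H1 class ran from 14.5% on chromosome 19 to 57.9% on chromosome 13. Per Mb, chromosome 2 had the most HFFc6-only regions, 28.1, and chromosome 22 the fewest, 9.90, and the HFFc6-only and H1-only classes ranked the chromosomes alike (rank correlation 0.899). The part that gene ends, CTCF and sharing with H1 play in this trend was not tested. Chromosome X differed between the lines, with 49.6% of its HFFc6 ATAC regions but 39.3% of its H1 ATAC regions in the class.

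**Figure D5:**
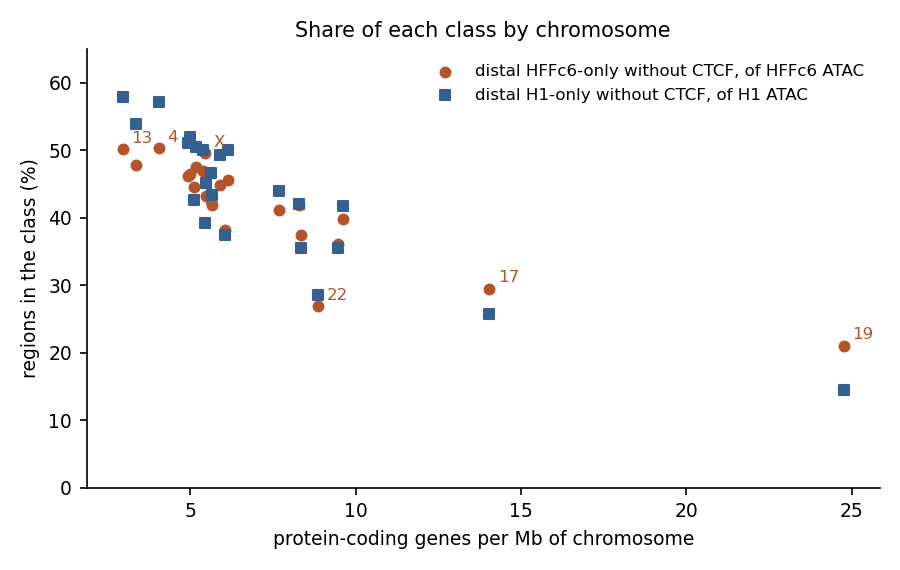
Percent of ATAC regions in the class against protein-coding genes per Mb for each of 23 chromosomes, for distal HFFc6-only regions without CTCF (circles, some labelled by chromosome) and distal H1-only regions without CTCF (squares). The lowest shares, 21.1 and 14.5%, are both on chromosome 19.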

How the data were processed

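The 4 peak lists were made by the authors with BWA, MACS2 and bedtools on hg38, per the submitters' processing notes; versions, filters, duplicate handling and any Tn5 offset are not stated in the labels or headers. The deposited fold enrichment is the authors' ratio of signal over background at each peak. The deposited −log10 q-value is also the authors', with 0.05 as the highest q in any list. Both ATAC lists and the HFFc6 CTCF list are each named by all libraries of their group in the labels, so each is 1 call for its group; no label names the hESC list. Another 10 libraries (H3K27ac, H3K4me3, SMC1) were not used here.

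Overlap meant at least 1 bp. Gene ends, promoter windows and miRNAs came from RefSeq tables of GRCh38 patch 14; no genome sequence was used, so motifs were counted only in promoter windows. Regions were counted at the protein-coding gene whose end lay closest. The regions and the 21 gene lists (372 genes, 372 matched) were chosen with earlier results of these data known. Named genes are the 15 with most regions, the 10 with most among genes without H1-only regions, listed genes, and those at the strongest 10 and widest 5 regions, the 10 largest clusters and the 1 kb limit. Genes with a start or a miRNA hairpin on a region were named after their values were seen, by fold enrichment or as examples. Single values of some listed genes are not reported here. With 1 call per group there is no replicate error, so no test was run and 95% Wilson intervals cover counting error only. The overlap, distance and clustering rules were tested on simulated data, with 0 disagreements over 3000 regions. Python 3.11.15, pandas 2.3.3 and scipy 1.17.1 were used.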

Additional observations from a re-analysis of the deposited data

Results flagged for a closer look

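On sequences other than chromosomes 1 to 22 and X, the HFFc6 ATAC file gave 534 peaks. They stood outside every comparison. The H1 ATAC file gave 275, the HFFc6 CTCF file 207 and the hESC-named CTCF file 259.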

How the results depend on the processing

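The number of regions, 67539, was 69729 with an overlap of 50% of the shorter region, 68704 with a −log10 q of at least 10 in every list and 62028 at 5 kb from gene ends. Their share of the HFFc6 list, 43.4%, was 44.8% at 50% overlap, 51.8% at the firmer q, 44.9% with 500 bp around the summits, 43.8% and 39.8% at 500 bp and 5 kb from gene ends, 41.8% with lncRNA gene ends added, 40.6% with a clearance of 500 bp and 44.7% with the H1 list shortened to the length of the HFFc6 list. Median fold enrichment, 4.24, was 4.18 at 50% overlap, 5.55 at the firmer q, 4.31 at the summits, 4.31 at 5 kb from gene ends and 4.26 with the clearance. The share in protein-coding genes, 48.8%, was 50.8% at the firmer q, 48.1% at 5 kb from gene ends and 49.5% with lncRNA ends. Joining at 25 kb gave 25899 clusters in place of 44042, and clusters of 5 or more numbered 124 at 5 kb and 3776 at 25 kb. Genes with more HFFc6-only regions numbered 7058, 5275 by the gene that holds the region, 7200 within 100 kb and 10015 at the firmer q; genes with fewer numbered 5642, but 2456 at the firmer q. There the median difference (HFFc6-only minus H1-only) was 1.5 for neural progenitor genes, against −1.5, and 1.5 for melanocyte genes, against −1. The difference turned at SLITRK1 (71), TENM3 (26) and ZEB2 (53) at the firmer q, at TENM3 (43), TBL1XR1 (−8), STIM2 (−4), SLIT2 (−4) and ZEB2 (1) by the gene that holds the region, and at TENM3 (4), STIM2 (−4) and SLIT2 (−4) within 100 kb; the cause was not tested. By the gene that holds the region, mesenchymal factors had 9 genes with more and 10 with fewer, and the AP-1 list 3 and 4. Growth factor receptors had 7 and 10, keratinocyte genes 1 and 4, blood genes 2 and 3 and neural progenitor genes 2 and 1. Fibroblast matrix genes had 11 and 4, contractile genes 12 and 2, the TGF-beta pathway 11 and 1 and integrins 10 and 4. The split of windows at 50% GC and the count with 1 window per gene were chosen after seeing the data. The planned motif search in shorter and longer windows at the summits was not run, for want of a genome sequence. No paired analysis was possible because each list is 1 call for its group and no test was made.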
